A study of Mus musculus with 96 samples.

Results

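The genes described here are 10 genes of mitochondrial fatty acid oxidation, chosen by symbol from a table of 54146 mouse genes: Cd36, Cpt1a, Cpt1b, Slc25a20, Cpt2, Acadvl, Acadl, Acadm, Hadha and Hadhb. The rule used symbols and no expression value, but the genes were chosen with earlier results of these data known. All 10 had a row in the table, and their transcripts were followed across myoblasts, cells at day 1 of differentiation and myotubes under inhibitors of the respiratory chain and of ATP synthase.

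Long-chain fatty acids reach mitochondria in steps that these genes encode. CD36 takes up fatty acids at the plasma membrane. CPT1, of which Cpt1a encodes the widely expressed isoform and Cpt1b the isoform of adult muscle, joins the acyl group to carnitine at the outer mitochondrial membrane and is the regulated step of entry. The carrier encoded by Slc25a20 moves acylcarnitine across the inner membrane, and CPT2 returns the acyl group to coenzyme A in the matrix. ACADVL, ACADL and ACADM are acyl-CoA dehydrogenases for very long, long and medium chains and begin each round of beta-oxidation. HADHA and HADHB are the alpha and beta subunits of the trifunctional protein, which completes each round for long chains and reduces NAD+ in doing so. The reduced carriers that the pathway makes are reoxidised by the respiratory chain.

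RNA-seq of C2C12 cells, a mouse skeletal muscle line that divides as myoblasts and fuses into myotubes in low serum, gave 96 samples in 35 conditions. Myoblasts were lentiviral lines with a doxycycline-inducible transgene, treated for 10 hr in the presence of doxycycline. The transgene was luciferase (the control line), LbNOX (a bacterial NADH oxidase in the cytosol), mitoLbNOX (the same enzyme sent to the mitochondrial matrix) or NDI1 (a yeast NADH dehydrogenase that piericidin does not block). The agents were piericidin A at 0.5 µM (complex I), antimycin A at 0.5 µM (complex III), oligomycin A at 1 µM (ATP synthase) and DMSO as vehicle. The luciferase and LbNOX lines received all of these, mitoLbNOX all but oligomycin, and NDI1 piericidin or DMSO. Untransduced myotubes, after 4 days in low serum, were treated for 10 hr with DMSO, with each inhibitor, with the uncoupler BAM15 at 0.5 µM, with 5% oxygen, or with oligomycin combined with piericidin, BAM15 or 5% oxygen. Cells at 5% oxygen had been moved there on the evening before, and stayed there while treated. Myotubes carrying adenoviral GFP or LbNOX, and untransduced cells after 24 hr in low serum (day 1 cells), received DMSO, piericidin or oligomycin. Luciferase and LbNOX myoblasts were also kept for 48 hr with chloramphenicol at 20 µg/ml, which blocks mitochondrial translation, or with DMSO. Uridine was present in this 48-hr experiment, whereas the medium of the 10-hr inhibitor treatments held none. Each condition had 3 samples, except for 2 in each condition of the NDI1 line, the GFP myotubes and the 48-hr experiment.

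Totals ran from 6458295 to 15366745 estimated counts per sample. The summed level of 4 proliferation markers was 1051 to 1099.7 CPM (counts scaled to a library total of 1000000) in control myoblasts, 180 to 202 in day 1 cells and 103 to 129 in myotubes, and that of 8 markers of differentiated myotubes was 16.6 to 20.6, 11102 to 11594 and 13106 to 13635. The 4 markers listed for myoblasts (Myod1, Myf5, Pax7 and Des) ran against that name, with sums of 528 to 541 CPM in control myoblasts, 2267 to 2339 in day 1 cells and 4042 to 4226 in myotubes, most of it from Des. Lists of 4 markers of other cell types that also use these genes were low in every sample, with sums of at most 0.881 CPM for adipocytes, 3.69 for endothelial cells and 8.38 for macrophages. In such bulk samples fewer cells of a type and less RNA per cell cannot be told apart. The labels do not say that replicates came from separate cultures, so p-values measure the spread between these samples, which may be technical.

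The genes lie apart in the genome except for Hadha and Hadhb, which are head to head (coordinates in GRCm38.p6). Hadha is on the minus strand at chr5:30118304-30155162 and Hadhb on the plus strand at chr5:30155248-30184593, so that 85 bases separate the annotated genes. That stretch, the plus strand of chr5:30155163-30155247, is shown because the transcripts on either side of it moved in opposite directions with piericidin and antimycin in control myoblasts.

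Hadha-Hadhb interval: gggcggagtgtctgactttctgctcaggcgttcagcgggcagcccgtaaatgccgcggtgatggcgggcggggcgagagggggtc

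The other stretch shown is the 250 bases before the RefSeq start of Acadm, on the minus strand of chr3:153944644-153944893, since Acadm had the greatest fall of the 8 genes tested under piericidin in control myoblasts. Capitals mark TGACCT, which reads AGGTCA on the other strand, the core sequence that nuclear receptors of the PPAR and ERR families recognise.

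Acadm upstream: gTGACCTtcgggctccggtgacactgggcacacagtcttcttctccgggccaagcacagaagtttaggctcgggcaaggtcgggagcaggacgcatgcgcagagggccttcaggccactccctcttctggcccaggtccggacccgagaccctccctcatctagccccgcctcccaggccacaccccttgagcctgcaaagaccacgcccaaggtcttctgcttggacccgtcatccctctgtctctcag

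RefSeq windows from 250 bases before to 50 bases after the start were at hand for 9 of the 10 genes (Cpt1b had none). AGGTCA on either strand occurred in 4 of the 9, those of Acadm, Cd36, Acadvl and Cpt1a, against 16.26% of 32851 windows of the same length. The extended ERR element TCAAGGTCA, which contains AGGTCA, and the ATF4 element TGATGCAA were in 0 of the 9, and in 0.4231% and 0.8949% of all windows. Such matches describe letters only.

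In control myoblasts given DMSO the genes differed widely in level. Per kilobase of the longest coding transcript, Acadl had the highest level at 65.5 ± 0.667 CPM per kb (mean ± SD, n = 3), followed by Hadhb at 52.3 ± 2.30, Acadvl at 44.1 ± 1.84, Acadm at 33.98 ± 0.417 and Hadha at 25.9 ± 1.12. The carnitine-step genes were lower, with Cpt2 at 14.4 ± 1.72, Cpt1a at 12.6 ± 0.497 and Slc25a20 at 7.80 ± 1.26 CPM per kb. Cpt2 and Cpt1a were neighbours whose levels lay within their spread. Cd36 had 0 counts in 31 of the 45 myoblast samples of all lines and at most 6 in any, and Cpt1b stayed at or below 29 counts in every sample outside the adenovirus-transduced myotubes. Neither could be tested in myoblasts, which left 8 genes.

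Piericidin lowered most of the 8 tested genes in control myoblasts. Of these, 7 fell and 1, Hadha, rose at an adjusted p under 0.05 (edgeR quasi-likelihood test against DMSO, Benjamini-Hochberg over 11978 genes), where 30.8% of all genes tested fell and 30.9% rose. The median log2 fold change of the 8 was -0.71, against 0.00 over all genes tested.

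Acadm had the greatest change. Its level was 70.5, 69.1 and 69.05 CPM in the DMSO samples and 22.3, 22.3 and 22.1 CPM with piericidin, so that the groups lay far apart with little spread. The piericidin samples stood at 31.9% ± 0.165 of the DMSO mean (SD, n = 3), and the fit gave -1.61 ± 0.0631 (adjusted p = 1.44e-19) as the log2 fold change and its SE, the form used throughout. Cpt1a went from 55.4, 52.1 and 56.04 to 26.2, 27.5 and 21.7 CPM (log2 fold change -1.08 ± 0.0972, adjusted p = 5.88e-11). Cpt2, at 38.7, 32.99 and 30.8 CPM with DMSO, was at 11.7, 20.1 and 18.7 CPM with piericidin (-0.98 ± 0.135, adjusted p = 2.85e-07). Neither gene's groups overlapped, although the lowest piericidin sample of Cpt2 stood apart from the other two. Acadl fell from 125, 127 and 124 to 71.3, 71.8 and 60.4 CPM (-0.85 ± 0.0619, adjusted p = 5.08e-13). The remaining falls were smaller: Hadhb by 0.56, Slc25a20 by 0.48 and Acadvl by 0.29 on the log2 scale. The Slc25a20 samples overlapped between the groups, and its call was lost without replicate 1 or without replicate 3 (all samples of that number left out). The rise of Hadha, from 105, 99.4 and 108 to 109.8, 119 and 117 CPM (0.19 ± 0.0610, adjusted p = 0.00943), was likewise lost without replicate 1 or 2.

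Antimycin gave a different order. Under this complex III inhibitor 5 of the 8 genes fell and 1 rose, where 31.1% of all genes fell and 32.1% rose, and the median of the 8 was -0.33. Acadm again fell the most, to 25.05, 23.5 and 22.9 CPM (-1.51 ± 0.0628, adjusted p = 5.25e-19). Cpt2 fell to 17.5, 15.9 and 19.3 CPM (-0.92 ± 0.135, adjusted p = 7e-07) and Hadhb to 66.1, 75.2 and 67.5 from 107, 112 and 103 CPM (-0.59 ± 0.0703, adjusted p = 2.05e-08). In all of these the antimycin samples lay below every DMSO sample. Hadha, in contrast, was at 136, 140.4 and 122 CPM with antimycin, above all of its DMSO samples (0.39 ± 0.0608, adjusted p = 2.32e-06). Cpt1a, at 40.2, 42.4 and 45.5 CPM, fell by 0.32 on the log2 scale, a call lost without replicate 1, and Acadl fell by 0.34. Acadvl (-0.09, 95% interval -0.23 to 0.04) and Slc25a20 (-0.29, 95% interval -0.58 to -0.01) did not pass the test.

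Oligomycin, the ATP synthase inhibitor, lowered 5 of the 8 genes and raised 0, where 26.3% of all genes fell and 24.5% rose. The median of the 8 was -0.38. Cpt1a had its greatest fall here, to 18.6, 19.9 and 20.6 CPM (-1.45 ± 0.0984, adjusted p = 1.53e-13). Acadm fell to 32.5, 32.3 and 29.2 CPM (-1.13 ± 0.0609, adjusted p = 6.19e-16). Both genes lay well below their DMSO samples. Slc25a20 (-0.49 ± 0.144, adjusted p = 0.00534, lost without replicate 1 or 3), Acadl (-0.38, adjusted p = 5.5e-06) and Hadhb (-0.38 ± 0.0696, adjusted p = 3.77e-05) fell less. Cpt2 was at 35.1, 36.5 and 32.05 CPM, within its DMSO range, with a log2 difference of 0.04 (95% interval -0.21 to 0.28). Hadha (-0.04, 95% interval -0.16 to 0.08) and Acadvl (-0.11, 95% interval -0.25 to 0.02) also did not pass.

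**Figure D1:**
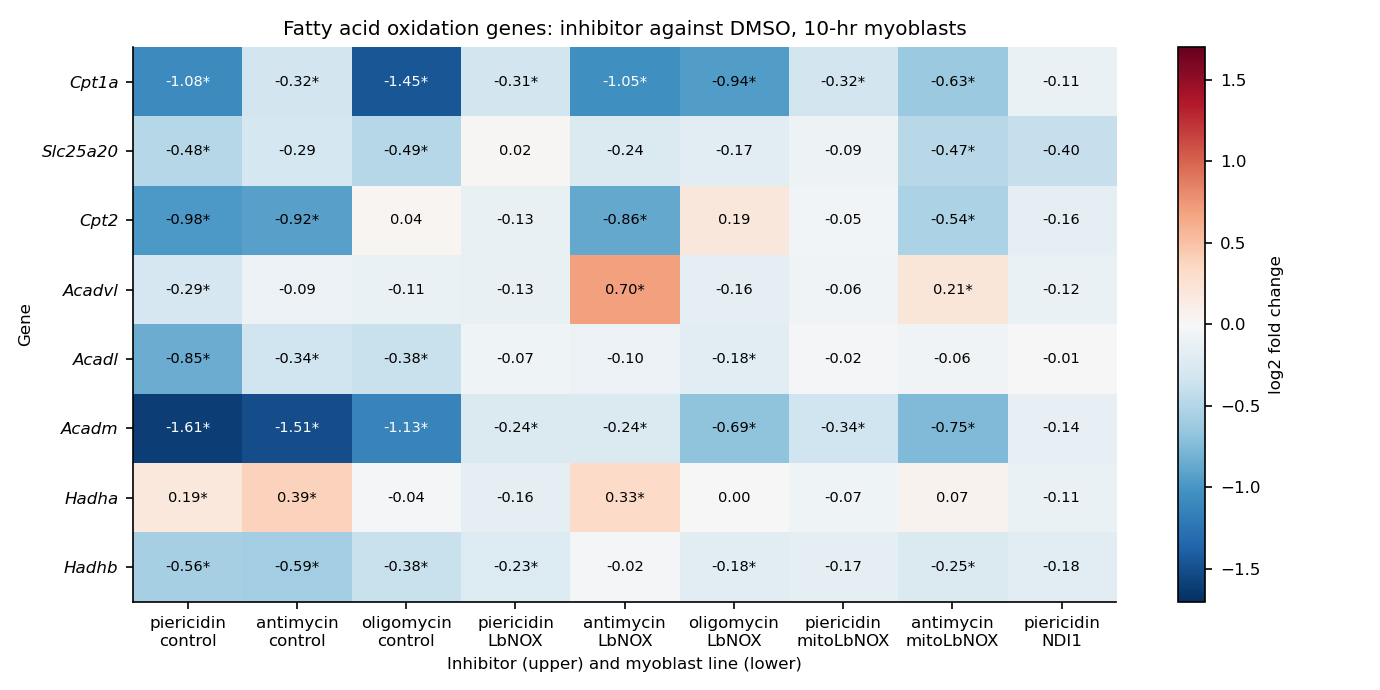
Heat map of log2 fold changes against DMSO for the 8 tested genes (rows) under each inhibitor in each 10-hr myoblast line (columns), with an asterisk for an adjusted p under 0.05. Acadm holds the darkest cells of the control line (-1.61 with piericidin and -1.51 with antimycin), Hadha is positive under piericidin and antimycin, and the NDI1 column has no asterisk.

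Since the 3 inhibitors shared the same DMSO samples, they were also compared with each other directly. Cpt1a and Cpt2, the enzymes on the outer and inner side of carnitine transport, had the largest differences between the inhibitors. Cpt2 was lower with piericidin than with oligomycin (log2 difference -1.01 ± 0.136, adjusted p = 4.65e-07) and lower with antimycin than with oligomycin (-0.96 ± 0.135, adjusted p = 7.02e-07), while antimycin and piericidin differed by 0.06 (95% interval -0.22 to 0.33). Cpt1a was higher with antimycin than with oligomycin (1.14 ± 0.0997, adjusted p = 6.9e-11) and than with piericidin (0.76 ± 0.0986, adjusted p = 2.78e-07). Acadl was lower with piericidin than with oligomycin (-0.47 ± 0.0622, adjusted p = 3.58e-07) and higher with antimycin than with piericidin (0.50 ± 0.0624, adjusted p = 1.21e-07). In all, 7 of the 8 genes differed between piericidin and oligomycin (39.2% of all genes tested), 5 between antimycin and oligomycin (50%) and 4 between antimycin and piericidin (37.2%). Slc25a20 passed in none of the 3. These counts rest on few samples: they were 3 to 6 for piericidin against oligomycin and 2 to 3 for antimycin against piericidin with 1 replicate number left out, and 4 and 2 without the count filter. The calls lost without a replicate number were those of Cpt1a, Acadvl, Hadha and Hadhb between piericidin and oligomycin, Acadvl and Hadha between antimycin and piericidin, and Hadhb between antimycin and oligomycin.

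The transgenes alone left these genes near their control levels. With DMSO, 0 of the 8 genes differed from the luciferase line in the LbNOX line (2.66% of all genes), the mitoLbNOX line (1.74%) or the NDI1 line (4.58%) by edgeR, and 0 by DESeq2. At an unadjusted p under 0.05 the numbers were 0, 0 and 1. The differences of single genes ran from -0.24 to 0.16 on the log2 scale.

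With piericidin fewer of the genes passed in the lines with an added NADH oxidase or dehydrogenase. In the LbNOX line 3 of 8 genes fell, where 3.87% of all genes did. Acadm was at 79.1, 73.3 and 73.7 CPM with DMSO and 59.9, 67.8 and 62.6 CPM with piericidin (-0.24 ± 0.0587, adjusted p = 0.00665), groups that did not overlap but lay closer than in the control line. Cpt1a (-0.31 ± 0.0939, adjusted p = 0.0328) and Hadhb (-0.23 ± 0.0692, adjusted p = 0.0310) were the other two. Each of the 3 calls was lost without at least 2 of the replicate numbers. In the mitoLbNOX line 2 of 8 fell, where 4.83% of all genes did: Acadm, from 72.2, 77.4 and 66.3 to 61.02, 55.9 and 55.3 CPM (-0.34 ± 0.0587, adjusted p = 0.000136, lost without replicate 2), and Cpt1a (-0.32 ± 0.0934, adjusted p = 0.0247, lost whichever replicate number was left out).

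In the NDI1 line 0 of 8 genes passed with piericidin by edgeR, and 0 by DESeq2, with 2 at an unadjusted p under 0.05 (0.00835% of all genes passed by edgeR). Acadm was at 73.2 and 74.1 CPM with DMSO and 69.3 and 64.5 CPM with piericidin (log2 difference -0.14, 95% interval -0.28 to 0.00). The 8 values ran from -0.40 for Slc25a20 (95% interval -0.74 to -0.05) to -0.01 for Acadl, with a median of -0.13.

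The difference between the lines' piericidin responses was tested as an interaction, in which all lines were set against the same luciferase samples. It passed for 7 of 8 genes with LbNOX (44.3% of all genes), 6 with mitoLbNOX (42.9%) and 6 with NDI1 (42.7%). The response of Acadm was less negative by 1.36 ± 0.0860 (adjusted p = 6.18e-14) with LbNOX, by 1.27 ± 0.0859 (adjusted p = 3.67e-13) with mitoLbNOX and by 1.47 ± 0.0953 (adjusted p = 1.1e-13) with NDI1. Acadl, Cpt1a and Cpt2 shifted the same way in all 3 lines, by 0.77 to 0.84, 0.76 to 0.97 and 0.81 to 0.93. Hadhb also shifted upward, by 0.33 to 0.39. Of these, the NDI1 differences of Cpt2 and Hadhb were lost without replicate 1 and without replicate 2, respectively. Hadha shifted downward, with differences of -0.34 (adjusted p = 0.00176) for LbNOX, -0.26 (adjusted p = 0.0160) for mitoLbNOX and -0.29 (adjusted p = 0.0143) for NDI1, each lost without replicate 1. Slc25a20 passed with LbNOX (0.50, adjusted p = 0.0468), a call lost by DESeq2's Wald test, and Acadvl passed in 0 of the 3 by edgeR and by DESeq2.

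Antimycin separated the genes. In the LbNOX line 2 rose and 3 fell (46.1% of all genes changed), and the responses differed from the control line for 5 genes (51.5%). Acadm, at 58.8, 61.7 and 63.5 CPM with antimycin, fell by 0.24 on the log2 scale, a response less negative than in control cells by 1.27 ± 0.0858 (adjusted p = 1.99e-13). Cpt1a moved the other way. It stood at 23.7, 23.1 and 23.2 CPM with antimycin against 51.1, 52.7 and 46.6 CPM with DMSO (-1.05 ± 0.0973, adjusted p = 3.3e-10), a response that differed from that of control cells by -0.73 ± 0.135 (adjusted p = 3.84e-05). Cpt2 fell to 18.4, 15.8 and 19.3 CPM (-0.86 ± 0.133, adjusted p = 3.58e-06). Its response was not separable from that of control cells (difference 0.06, 95% interval -0.31 to 0.43, adjusted p = 0.822).

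Acadvl rose with antimycin in the LbNOX line, and did not pass there with the other inhibitors. Its level was 99.8, 105 and 100.2 CPM with DMSO and 164, 159.9 and 153 CPM with antimycin, that is 156% ± 5.62 of the DMSO mean (SD, n = 3; 0.70 ± 0.0674, adjusted p = 7.38e-10). In control cells antimycin left Acadvl at 84.1, 88.4 and 89.7 CPM, and the responses differed by 0.79 ± 0.0959 (adjusted p = 4.57e-08). Acadvl shares 1151 exonic bases with Dvl2 on the opposite strand, and the libraries did not keep strand, so reads of that stretch cannot be told apart. Dvl2 rose as well, from 12.2 ± 0.838 to 16.6 ± 1.60 CPM (log2 fold change 0.50 ± 0.175, adjusted p = 0.0207). Its part in the result was not tested. Hadhb did not pass with antimycin in this line (-0.02, 95% interval -0.15 to 0.12), and its response shifted upward by 0.57 ± 0.0985 (adjusted p = 1.51e-05).

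In the mitoLbNOX line antimycin lowered 5 genes and raised 1 (47.7% of all genes changed). Acadm fell to 43.8, 43.2 and 40.4 CPM (-0.75 ± 0.0600, adjusted p = 1.04e-11), a level between those of the control and LbNOX lines. Cpt1a (-0.63 ± 0.0955, adjusted p = 2.49e-06) and Cpt2 (-0.54 ± 0.130, adjusted p = 0.000868) fell, Slc25a20 fell by 0.47 and Hadhb by 0.25, and Acadvl rose by 0.21. The calls of Slc25a20, Acadvl and Hadhb were lost without 1 or 2 of the replicate numbers. The responses differed from the control line for 5 genes (31.7%). The differences were 0.76 (adjusted p = 4.37e-08) for Acadm, 0.34 (adjusted p = 0.00846) for Hadhb, -0.32 (adjusted p = 0.00459) for Hadha, 0.30 (adjusted p = 0.0154) for Acadvl and 0.28 (adjusted p = 0.0124) for Acadl, and only that of Acadm kept its call without each replicate number in turn.

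With oligomycin in the LbNOX line 4 genes fell, where 17.7% of all genes did. Acadm was at 47.9, 41.8 and 46.5 CPM (-0.69 ± 0.0597, adjusted p = 1.08e-10) and Cpt1a at 23.01, 22.9 and 29.8 CPM (-0.94 ± 0.0969, adjusted p = 3.54e-09), each below all DMSO samples. Acadl and Hadhb both fell by 0.18, calls lost without replicate 2 or 3. The response differed from the control line for 2 genes (7.98%), Acadm by 0.45 ± 0.0850 (adjusted p = 0.000735) and Cpt1a by 0.51 ± 0.137 (adjusted p = 0.0180). The difference of Cpt1a lost its call whichever replicate number was left out, and when only the groups compared were fitted. Without the count filter neither difference kept its call.

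**Figure D2:**
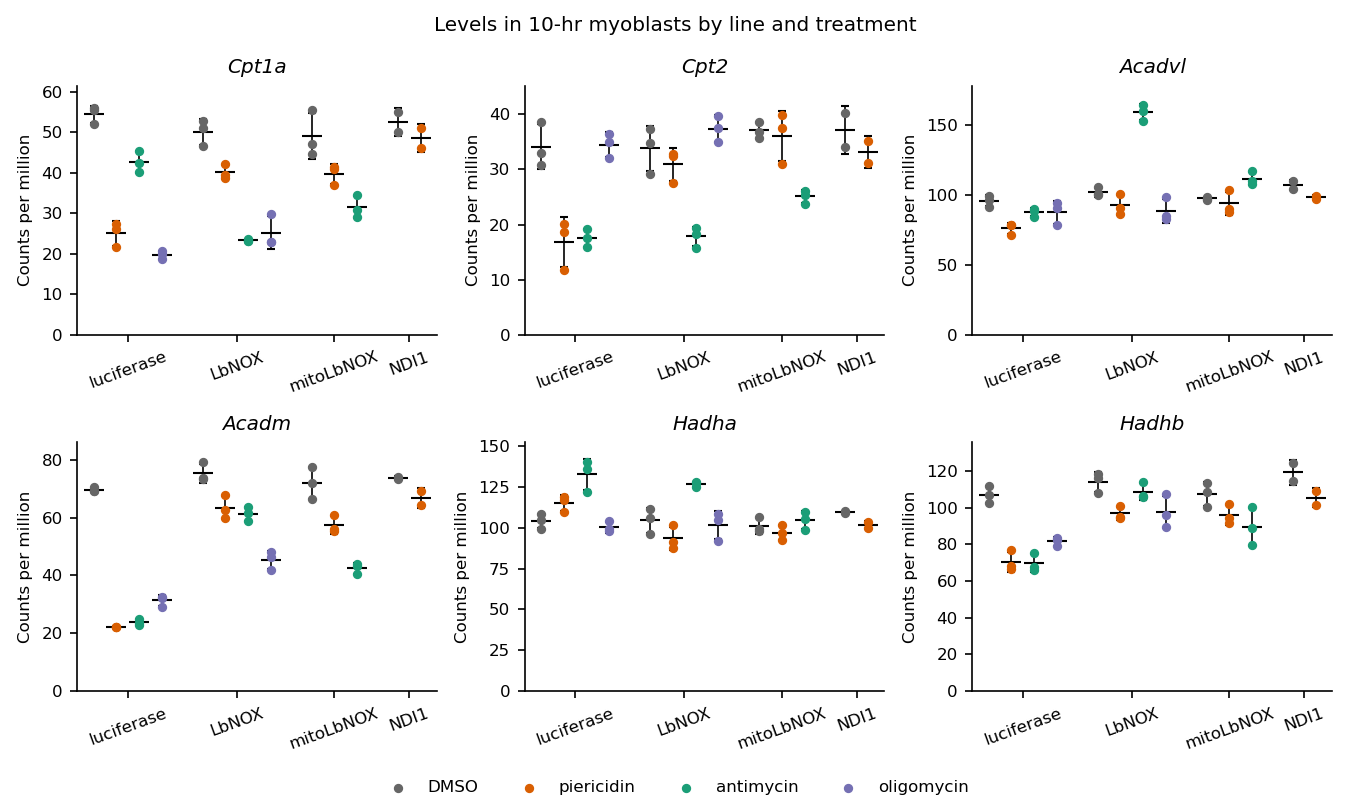
CPM (y axis) in each 10-hr myoblast sample for 6 genes, by line (x axis) and treatment (colour), with bars for mean and SD. Acadm is at 22.1 to 22.3 with piericidin in the luciferase line and at 59.9 or more with it in the LbNOX line, while Cpt2 with antimycin is at 15.8 to 19.3 in both lines.

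The subunit genes Hadha and Hadhb changed in opposite directions with piericidin and with antimycin in control myoblasts. HADHA and HADHB form a complex in equal numbers, and their genes face away from each other across the 85 bases printed above. The ratio of Hadhb to Hadha counts in the control line was 1.02, 1.13 and 0.948 with DMSO, 0.606, 0.573 and 0.656 with piericidin, 0.485, 0.536 and 0.553 with antimycin and 0.841, 0.792 and 0.807 with oligomycin. Every inhibitor sample lay below every DMSO sample. As mean ± SD the ratio was 1.03 ± 0.0906, 0.612 ± 0.0416, 0.524 ± 0.0350 and 0.813 ± 0.0254 (n = 3 each). With antimycin it was 0.859 ± 0.0461 in the LbNOX line (1.09 ± 0.0299 with DMSO) and 0.860 ± 0.146 in the mitoLbNOX line (1.06 ± 0.0377 with DMSO). In both lines every antimycin sample lay below every DMSO sample of that line. In untransduced and transduced myotubes all condition means lay between 0.863 and 1.12. In untransduced myotubes the ratio was 0.885, 0.914 and 1.005 with DMSO and 1.13, 1.11 and 1.12 with piericidin, where every sample lay above every DMSO sample, the opposite of the order in control myoblasts. The BAM15 samples (1.03, 1.02 and 1.03) also lay above DMSO, and the oligomycin samples overlapped with it. The ratio is given as a description, without a test. Hadha shares 75 exonic bases with Garem2, which was too low to be tested.

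**Figure D3:**
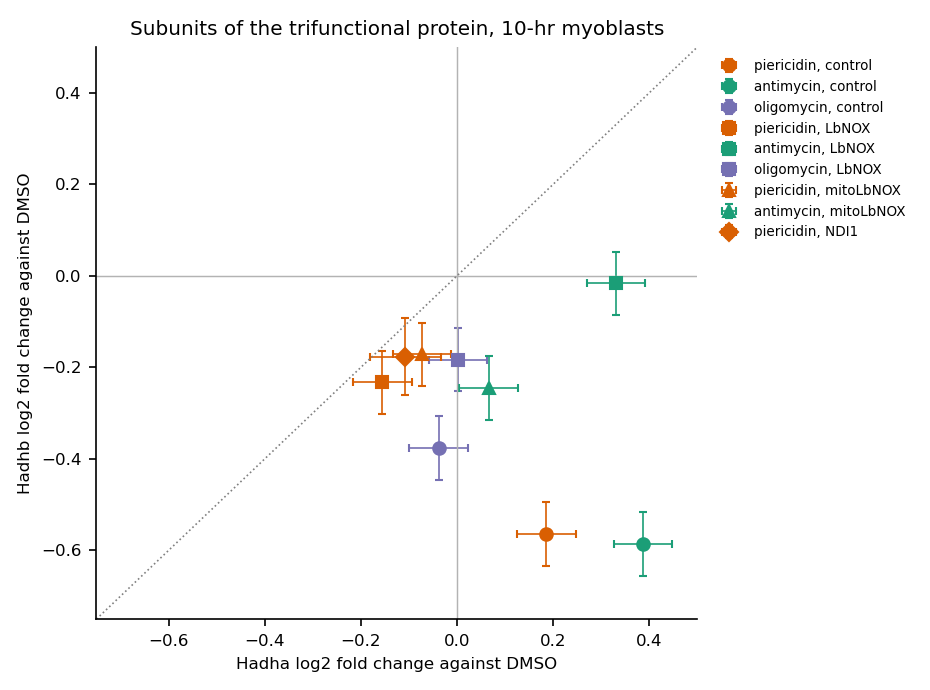
Log2 fold change against DMSO of Hadha (x axis) and Hadhb (y axis) in 10-hr myoblasts, 1 point per inhibitor and line with SE bars. The control line's piericidin point (0.19, -0.56) and antimycin point (0.39, -0.59) lie farthest below the dotted line of equal change.

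Most of the genes were higher in myotubes than in myoblasts, and Cpt1a was lower. Control myoblasts carried luciferase, doxycycline and growth serum, whereas day 1 cells and myotubes were untransduced in low serum, and these differences and the state cannot be told apart. In myotubes with DMSO 7 of 8 genes were higher than in control myoblasts and 1 was lower, where 35.7% of all genes were higher and 33.7% lower. Acadl was at 125, 127 and 124 CPM in myoblasts, 153, 143 and 157 in day 1 cells and 235, 227 and 246 in myotubes. Myotubes differed from myoblasts by 0.91 ± 0.0588 (adjusted p = 4.03e-14) on the log2 scale, and Hadha (0.77 ± 0.0594, adjusted p = 2.34e-12), Slc25a20 (0.71 ± 0.150, adjusted p = 0.000135) and Hadhb (0.63 ± 0.0537, adjusted p = 2.17e-11) followed. Cpt2, Acadvl and Acadm were higher by 0.46, 0.44 and 0.43. The calls of all 8 genes were kept without each replicate number in turn.

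Cpt1a was lower in myotubes, at 35.9, 35.8 and 32.8 CPM against 55.4, 52.1 and 56.04 in myoblasts (-0.65 ± 0.102, adjusted p = 2.23e-06). Day 1 cells, at 50.98, 57.1 and 47.4 CPM, were not separable from myoblasts (-0.09, 95% interval -0.28 to 0.11), and myotubes were below them (-0.56 ± 0.102, adjusted p = 7.44e-05). From myoblasts to day 1, 6 of 8 genes were higher (31.3% of all genes were), with the largest differences in Hadha (0.52 ± 0.0593, adjusted p = 8.93e-09) and Hadhb (0.51 ± 0.0536, adjusted p = 1.6e-09). From day 1 to myotubes 5 were higher and 1 was lower (35.6% of all genes changed). Acadl led (0.66 ± 0.0584, adjusted p = 3.97e-10), while the gains of Cpt2, Hadha, Acadvl and Acadm were each lost without at least 2 of the replicate numbers.

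Cd36, the fatty acid transporter of the plasma membrane, had the widest range. Control myoblasts with DMSO had 0 counts in each sample, day 1 cells 16.4, 13.6 and 17.1 CPM and myotubes 55.1, 54.6 and 63.5 CPM. Against a floor of 3 counts per library in the myoblasts, Cd36 was at least 61.8-fold higher in day 1 cells and at least 227-fold higher in myotubes. It passed the count filter there only through the groups in which it was high, and is not among the genes counted above. Cpt1b, the muscle isoform, was at 0.423, 0 and 0.866 CPM in the myotubes and 1.66, 0.424 and 0.366 CPM in control myoblasts, ranges that overlapped. It overlaps the same-strand gene Gm44502 over 2744 exonic bases, which makes its counts uncertain.

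In myotubes with DMSO the order of levels was led by Acadl at 123 ± 5.06 CPM per kb, Hadhb at 80.9 ± 1.84 and Acadvl at 60.04 ± 3.06. Acadm at 45.9 ± 4.12 and Hadha at 44.2 ± 1.93 lay within their spread of each other. Below them came Cpt2 at 19.8 ± 1.39, Cd36 at 16.99 ± 1.47, Slc25a20 at 12.7 ± 0.660, Cpt1a at 8.07 ± 0.404 and Cpt1b at 0.148 ± 0.150 CPM per kb. The place of Cpt1b is uncertain, since it shares 2744 exonic bases with Gm44502, whose level was not examined.

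**Figure D4:**
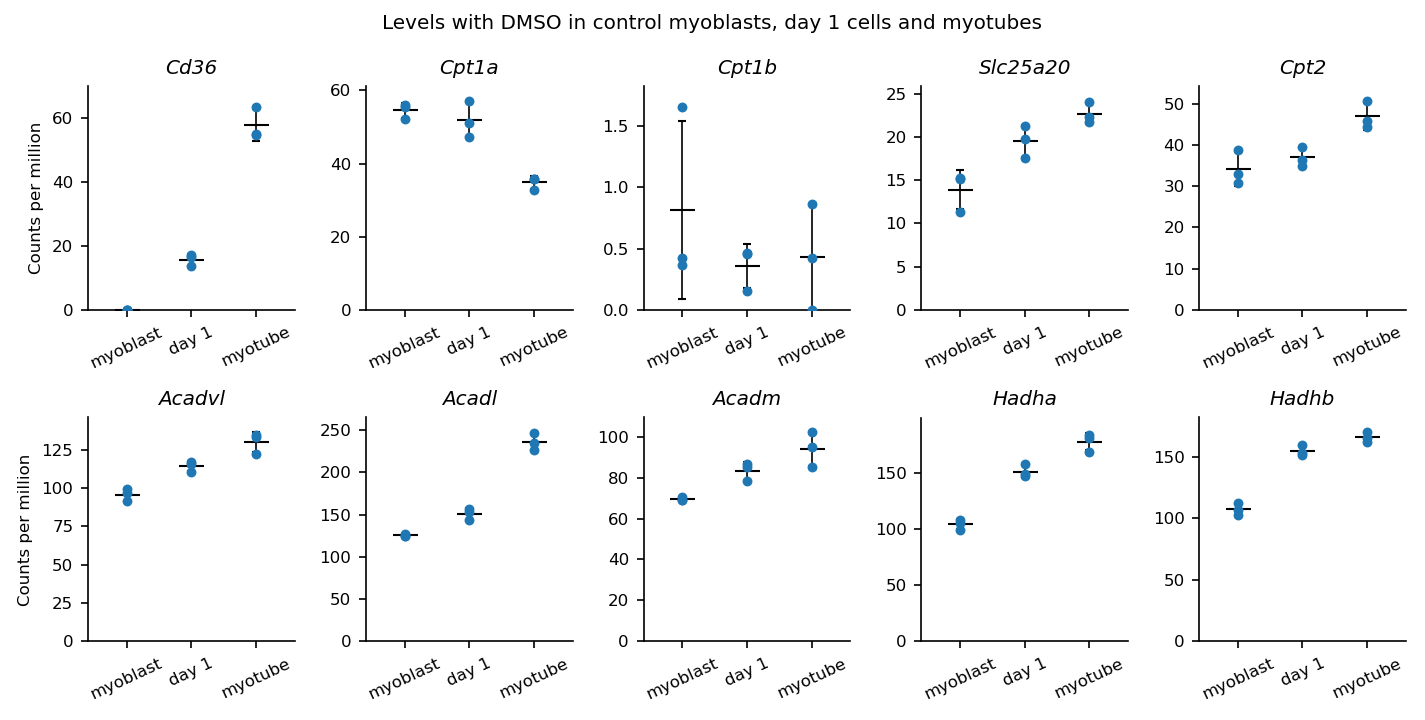
CPM (y axis) of the 10 genes in each DMSO sample of control myoblasts, day 1 cells and myotubes (x axis), with bars for mean and SD of 3 samples. Cd36 goes from 0 to 54.6 or more, Acadl ends at 227 or more and Cpt1a ends at 32.8 to 35.9.

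Fewer of the genes passed in untransduced myotubes, where 9 could be tested, Cd36 included. Piericidin lowered 1 of 9 genes (4.84% of all genes fell), Hadha, from 183, 181 and 169 to 143, 158 and 153 CPM (-0.21 ± 0.0536, adjusted p = 0.0123), a call lost without replicate 1 or 3. Antimycin changed 0 of 9 by edgeR and 0 by DESeq2, with 2 at an unadjusted p under 0.05 (12.9% of all genes changed). Acadm was at 85.2, 102 and 94.8 CPM with DMSO, 90.6, 106 and 99.2 with piericidin and 92.1, 90.5 and 95.2 with antimycin, ranges that overlapped. The intervals of its difference were -0.04 to 0.22 with piericidin and -0.13 to 0.12 with antimycin.

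The difference in response between myotubes and control myoblasts passed for 7 of 8 genes with piericidin (46.5% of all genes), 6 with antimycin (47.9%) and 2 with oligomycin (29%). Acadm differed the most with piericidin (1.74 ± 0.0907, adjusted p = 1.96e-15) and with antimycin (1.55 ± 0.0901, adjusted p = 2.71e-14), each time less negative in myotubes. Cpt1a differed by 1.31 with piericidin and by 1.48 ± 0.149 (adjusted p = 1.06e-08) with oligomycin, and Cpt2 by 0.90 and 0.95 with piericidin and antimycin. The differences of Hadha were negative, -0.35 (adjusted p = 0.00107) with piericidin and -0.48 (adjusted p = 2.96e-05) with antimycin. The piericidin difference of Acadvl (0.22) was lost under several alternatives, DESeq2 among them.

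Oligomycin was the inhibitor with the most calls in myotubes, lowering 4 of 9 genes where 16.4% of all genes fell. Cd36 was at 55.1, 54.6 and 63.5 CPM with DMSO and 38.5, 38.6 and 37.6 CPM with oligomycin, 66.2% ± 0.936 of the DMSO mean (SD, n = 3; -0.56 ± 0.103, adjusted p = 0.000150). The oligomycin samples were close together and below all DMSO samples. Hadhb fell from 162, 165 and 169.7 to 143, 134 and 139 CPM (-0.22 ± 0.0496, adjusted p = 0.00121), Acadl from 235, 227 and 246 to 215, 191 and 189 CPM (-0.21 ± 0.0460, adjusted p = 0.000843) and Acadm to 79.1, 81.2 and 81.7 CPM (-0.18 ± 0.0647, adjusted p = 0.0311). Cd36 and Hadhb kept their calls without each replicate number, Acadl lost its call without replicate 3 and Acadm without replicate 2 or 3. Cpt1a, which had fallen the most in oligomycin-treated control myoblasts, was at 39.5, 32.2 and 31.6 CPM (0.02, 95% interval -0.21 to 0.25).

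Against the other inhibitors in myotubes oligomycin gave lower levels of 4 of 9 genes than piericidin (13.6% of all genes) and of 3 of 9 than antimycin (9.71%). With the replicate number as a block, 4 genes passed in the second of these comparisons. For Cd36 the log2 difference was -0.39 (adjusted p = 0.00673) from piericidin, lost without replicate 2 or 3, and -0.51 (adjusted p = 0.000538) from antimycin.

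Cd36 was higher with oligomycin at 5% oxygen, and with oligomycin and BAM15, than with oligomycin alone. Its level was 46.7, 39.6 and 48.9 CPM with added piericidin, 52.5, 45.3 and 49.2 CPM with added BAM15 and 65.7, 65.5 and 62.3 CPM at 5% oxygen. All samples of these 3 conditions lay above the oligomycin samples. The difference from oligomycin alone was 0.77 (adjusted p = 1.86e-06) at 5% oxygen and 0.38 (adjusted p = 0.00662) with BAM15 (lost without replicate 3), and that with piericidin did not pass (0.23, 95% interval 0.03 to 0.44). Acadm was higher than with oligomycin alone in each combination, by 0.22 (adjusted p = 0.0165) with piericidin, 0.28 (adjusted p = 0.00204) with BAM15 and 0.21 (adjusted p = 0.0168) at 5% oxygen. Of these, the BAM15 call was kept without each replicate number in turn. Acadl was higher in each by 0.14 to 0.16, calls lost without replicate 2 or 3, and Acadvl was lower at 5% oxygen by 0.17, lost without replicate 1 or 2. In all, 2 of 9 genes rose with added piericidin (8.46% of all genes rose), 3 with added BAM15 (12%), and 3 rose and 1 fell at 5% oxygen (33.3% changed).

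Set against DMSO, oligomycin with piericidin lowered 1 of 9 genes, Cd36 (-0.32, adjusted p = 0.0379, lost without replicate 2 or 3), where 6.97% of all genes fell. Oligomycin with BAM15 lowered 2, Hadha (-0.16, adjusted p = 0.0269) and Hadhb (-0.16, adjusted p = 0.0194), where 11% fell, and both calls were lost without 2 or more of the replicate numbers. Within 5% oxygen oligomycin changed 0 of 9 by edgeR and 0 by DESeq2, with 0 at an unadjusted p under 0.05 (4.26% of all genes changed). There the Cd36 difference was 0.11 (95% interval -0.08 to 0.31). BAM15 alone raised 2 genes, Cpt2 (0.28, adjusted p = 0.0119) and Acadm (0.22, adjusted p = 0.0127), where 13.2% of all genes rose. 5% oxygen alone lowered 2, Slc25a20 (-0.34, adjusted p = 0.0475) and Acadvl (-0.16, adjusted p = 0.0248), where 9.78% fell. Each of these 4 calls was lost without at least 2 of the replicate numbers, and that of Slc25a20 also with the replicate number as a block (1 gene called).

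**Figure D5:**
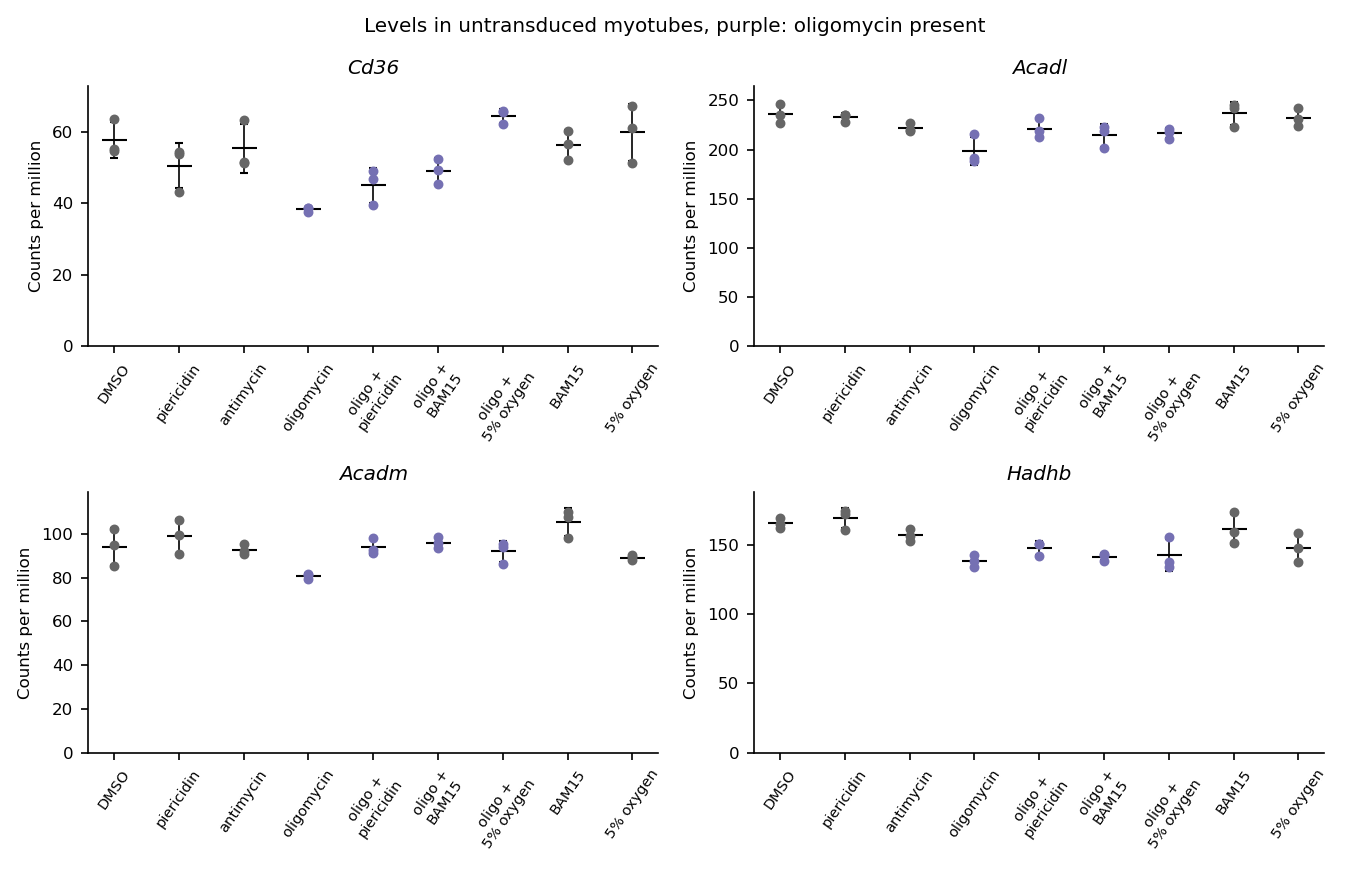
CPM (y axis) of Cd36, Acadl, Acadm and Hadhb in each untransduced myotube sample by treatment (x axis), purple where oligomycin was present, with bars for mean and SD of 3 samples. Cd36 is at 37.6 to 38.6 with oligomycin alone and at 62.3 to 65.7 with oligomycin at 5% oxygen.

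Adenovirus-transduced myotubes gave a separate set of samples. In GFP myotubes oligomycin lowered 4 of 9 genes (11.8% of all genes fell) and in LbNOX myotubes 5 of 9 (14.5%). Cd36 was at 80.3 and 65.2 CPM with DMSO and 52.4 and 44.6 CPM with oligomycin in GFP myotubes (-0.60 ± 0.105, adjusted p = 0.000662). In LbNOX myotubes it was at 74.7, 78.1 and 78.8 CPM with DMSO and at 50.9, 49.3 and 50.9 CPM with oligomycin (-0.60 ± 0.0854, adjusted p = 6.98e-05). Neither pair of groups overlapped, and both calls were kept without each replicate number. Acadm fell by 0.28 and 0.22, Acadl by 0.26 and 0.23 and Hadhb by 0.18 and 0.24 in the GFP and LbNOX myotubes, of which the Acadl and Hadhb calls in LbNOX myotubes were kept without each replicate number. The Hadhb call in GFP myotubes was lost by DESeq2 and with the replicate block (3 genes called), and Acadvl fell in LbNOX myotubes by 0.18, lost whichever replicate number was left out.

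By edgeR no gene tested, within or outside these 9, passed for a different response with LbNOX, where each GFP condition had 2 samples. The interaction passed for 0 of 9 genes with oligomycin (0% of all genes) and for 0 of 9 with piericidin (0%), by edgeR and for these genes also by DESeq2, with 0 at an unadjusted p under 0.05 for either. For Cd36 the difference of the oligomycin responses was -0.01 (95% interval -0.27 to 0.26). Piericidin changed 0 of 9 genes in GFP myotubes (3.08% of all genes) and 0 in LbNOX myotubes (6.77%) by edgeR and by DESeq2, with 0 and 1 at an unadjusted p under 0.05. LbNOX against GFP with DMSO gave 0 of 9 by both tools and 0 at an unadjusted p under 0.05 (0.00807%).

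Cpt1b reached its highest levels of the series in these transduced myotubes. It was at 1.34 and 1.64 CPM with DMSO, 2.67 and 2.32 with piericidin and 5.29 and 5.11 with oligomycin in GFP myotubes. In LbNOX myotubes it was at 0.900, 2.05 and 1.45 CPM with DMSO, at 2.98, 3.14 and 3.33 with piericidin and at 4.77, 1.87 and 2.71 with oligomycin. The oligomycin samples overlapped with DMSO in LbNOX myotubes. These are at most 58 counts per sample, and the gene passed the count filter only through inhibitor-treated groups, so no test is given. The overlap with Gm44502 makes these counts uncertain as well.

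In day 1 cells oligomycin lowered 2 of 8 genes (9.29% of all genes fell). DESeq2 called 3 of the 8 and 2753 of all genes, where edgeR called 2713 of all genes. Acadm went from 78.2, 85.01 and 86.7 to 69.5, 68.5 and 71.6 CPM (-0.24 ± 0.0616, adjusted p = 0.00548, lost without replicate 2 or 3) and Hadhb from 151, 159 and 153 to 125, 124 and 139 CPM (-0.23 ± 0.0535, adjusted p = 0.00163, lost without replicate 2). Cd36 was at 9.54, 12.96 and 12.1 CPM with oligomycin, below its 3 DMSO samples. With piericidin it was at 13.3, 13.3 and 11.9 CPM, also below them. The log2 difference passed with oligomycin (-0.43, adjusted p = 0.0394) and not with piericidin (-0.29, adjusted p = 0.349). Cd36 is outside the 8 genes counted here, and its difference was not recomputed under the alternatives. Piericidin changed 0 of 8 by edgeR and 0 by DESeq2, with 1 at an unadjusted p under 0.05 (3.75% of all genes changed).

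After 48 hr chloramphenicol lowered 1 of 8 genes in control myoblasts (3.62% of all genes fell; 3 of the 8 had an unadjusted p under 0.05 and DESeq2 called 1). Hadhb went from 118 and 128 to 92.5 and 96.5 CPM (-0.34 ± 0.0746, adjusted p = 0.0267), a call lost without either chloramphenicol sample or the second DMSO sample of the line, without the first chloramphenicol sample of the LbNOX line, and with the replicate block (0 genes called). In the LbNOX line 0 of 8 passed by edgeR and 0 by DESeq2, with 2 at an unadjusted p under 0.05 (0.931% of all genes). The interaction passed for 0 of 8 by both tools, with 0 at an unadjusted p under 0.05 (0.53%). Acadm was at 76.7 and 82.1 CPM with DMSO and 63.9 and 64.7 with chloramphenicol in control cells (-0.26, 95% interval -0.44 to -0.08).

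Other genes of fatty acid handling were followed as a list of 56, of which 47 could be tested in 10-hr myoblasts. Piericidin raised 8 and lowered 20 of the 47 in control cells, antimycin raised 11 and lowered 19, and oligomycin raised 10 and lowered 12. Of all genes tested, 30.9% rose and 30.8% fell with piericidin, 32.1% and 31.1% with antimycin, and 24.5% and 26.3% with oligomycin, so that the list's counts with oligomycin were near those of all genes. Among 12 further enzymes of mitochondrial beta-oxidation, 8 fell and 2 rose with piericidin, 8 fell and 3 rose with antimycin, and 3 fell and 2 rose with oligomycin, against the same shares of all genes. Acaa2, the thiolase for medium and shorter chains, was the enzyme with the greatest fall under piericidin, from 151, 149 and 157 to 62.3, 68.02 and 68.5 CPM (-1.16 ± 0.0580, adjusted p = 6.23e-17).

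Some genes outside beta-oxidation moved further. Pdk4, a kinase that switches off pyruvate dehydrogenase and a PPAR target, fell from 47.6, 44.1 and 41.4 CPM to 6.76, 6.30 and 4.25 with piericidin (-2.90 ± 0.184, adjusted p = 1.83e-14), by 2.26 on the log2 scale with antimycin and by 2.01 with oligomycin. Plin2, which coats lipid droplets, rose by 1.71 ± 0.0605 (adjusted p = 1.18e-20) with piericidin, and by 1.31 and 1.06 with antimycin and oligomycin. Slc27a1, a fatty acid transport protein, rose by 1.43, 2.20 and 0.82. Acsl1, a long-chain acyl-CoA synthetase, rose with piericidin (0.75) and oligomycin (0.91), and Acsl3 of the same family fell with oligomycin (-1.07 ± 0.382, adjusted p = 0.0204). Pparg, a nuclear receptor of the PPAR family, rose by 1.24 ± 0.186 (adjusted p = 1.17e-06) with antimycin and fell by 0.66 and 0.87 on the log2 scale with piericidin and oligomycin. Angptl4, a secreted inhibitor of lipoprotein lipase, fell by 2.12 on the log2 scale with antimycin and by 0.21 with piericidin, and rose by 0.28 with oligomycin.

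The piericidin response of genes on the list differed from that of control cells upward for 17 and downward for 5 with LbNOX, 14 and 5 with mitoLbNOX, and 15 and 7 with NDI1. Of all genes, 44.3%, 42.9% and 42.7% differed in these comparisons, so the share of the list that differed was near that of all genes. In untransduced myotubes oligomycin raised 8 and lowered 13 of 50, where 16.9% of all genes rose and 16.4% fell. Acsl3 (-1.47 ± 0.290, adjusted p = 0.000323), Angptl4 (-1.03 ± 0.110, adjusted p = 5.86e-08) and Acsl6 (-0.69 ± 0.0769, adjusted p = 1.11e-07) fell the most, and Acaca (0.57 ± 0.113, adjusted p = 0.000311), Echs1 (0.37 ± 0.0523, adjusted p = 3.91e-06) and Pnpla2 (0.34 ± 0.0692, adjusted p = 0.000403) rose the most. Between the states no count over the list is given, since some of its genes passed the count filter only through the low-serum groups in which they were high. Acsl6, an acyl-CoA synthetase, was one of these, at 0.368, 0.0706 and 0.549 CPM (at most 6 counts) in control myoblasts and 38.6, 41.97 and 42.1 in myotubes. Fabp3, the fatty acid binding protein of muscle and heart, was at 1.29, 1.34 and 1.19 CPM (13 to 19 counts) in control myoblasts and 44.03, 44.6 and 43.9 in myotubes. Both are given as levels, with no test. Acsl3 was higher in myotubes than in control myoblasts (log2 difference 3.28), and Angptl4 (-2.23), Pparg (-2.05) and Acsl5 (-1.84) were lower.

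The genes most like each other over conditions can be given only as a description, since conditions share samples, depth and a common normalisation. Over the 13 conditions of 10-hr myoblasts and 9618 genes, condition means of Cpt1a were most correlated with those of Deptor (Pearson r = 0.975), Adgrl3 (0.972) and Atp1b3 (0.964), and those of Hadha with Emc3 (0.933), Akr1a1 (0.917) and Pias4 (0.915). Hadhb correlated with Acadm at 0.958 and with its partner Hadha at -0.33. Over the 9 conditions of untransduced myotubes and 10145 genes, Cd36 was most like Tspan12 (0.982), Ddx6 (0.982) and Echdc1 (0.971), Cpt1a like Hoxc10 (0.940), Micall1 (0.923) and Aktip (0.905), and Hadha like Nckap1 (0.935), Tonsl (0.931) and Ctnnbl1 (0.891). Cpt1b was below the level required.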

How the data were processed

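RNA from 96 C2C12 samples was sequenced by the authors as non-strand-specific polyA libraries (Smart-seq2). They estimated transcript abundance with kallisto 0.44 on Ensembl mouse transcripts (GRCm38.p6) plus the transgenes, and deposited 1 table of expected counts per gene, given as whole numbers and summed over flow cells. Estimates share out reads between overlapping transcripts, which affects Acadvl, Hadha and Cpt1b.

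Levels are CPM (counts scaled to a library total of 1000000), with TMM over all 96 samples. Separate models were fitted to 10-hr myoblasts, untransduced myotubes, transduced myotubes, the 48-hr experiment and the DMSO and treated samples of the 3 states, in edgeR 4.0.16 (quasi-likelihood F test, R 4.3.3), 52 comparisons in all. Genes needed 16 counts in every replicate of at least 1 condition, and 4 transgene rows were left out. A call is a Benjamini-Hochberg adjusted p under 0.05 over all genes tested, SE is the absolute log2 fold change over the square root of F, and 95% intervals are 1.96 SE. DESeq2 1.42.0, other scaling, no count filter, a replicate block, a plate-edge covariate, smaller fits and left-out replicates were alternatives. Totals ran from 6458295 to 15366745, and no 2 of 87 replicate pairs were identical. The scripts were tested on simulated data. The genes, lists and tests were chosen with earlier results of these data known. In each comparison, full statistics are given for up to 4 called genes, mostly those with the largest change, and for genes whose direction differed between comparisons, and of the wider list up to 3 called genes per direction (mean of at least 50 counts) are named for the main comparisons, except 1 that is not reported here.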

Additional observations from a re-analysis of the deposited data

Results flagged for a closer look

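Results were listed here where the response of these genes differed between lines or states by a test of the difference itself. With piericidin, such differences from control myoblasts passed for 7 of 8 genes in the LbNOX line (44.3% of all genes), 6 in the mitoLbNOX line (42.9%), 6 in the NDI1 line (42.7%) and 7 in untransduced myotubes (46.5%). With antimycin they passed for 5 genes in the LbNOX line (51.5% of all genes), 5 in the mitoLbNOX line (31.7%) and 6 in untransduced myotubes (47.9%). With oligomycin they passed for 2 genes in the LbNOX line (7.98% of all genes) and 2 in untransduced myotubes (29%), Acadm and Cpt1a in each. All of these rest on the same control DMSO samples, so they are not independent of each other. Acadm had a difference in all 9 comparisons, from 0.45 for oligomycin with LbNOX to 1.74 for piericidin in myotubes. Its call for oligomycin with LbNOX was lost without the count filter.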

How the results depend on the processing

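Alternatives were run for the called values of the 8 genes, for Cd36 in myotubes and for the counts of these genes called, and not for Cd36 in day 1 cells or for genes of the wider list. None of the values recomputed changed direction. Of 161 called values, 158 kept their call with DESeq2's Wald test, 160 with DESeq2's size factors and 158 with the replicate block. The number was 154 with the plate-edge covariate, 141 when only the groups compared were fitted and 118 without the count filter. That last alternative tests more genes and refits the model, and why calls were lost in it was not tested. With 1 replicate number left out, 345 of 488 kept it, with fewer samples per group. Another scaling moved the median of all genes by at most 0.0424 on the log2 scale. Counts below are of these genes called. The share of all genes called under each alternative is not given beside them, so a lower count cannot be told apart from a fall over all genes.

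Without the count filter the number of these genes called was 2 for antimycin against piericidin and 4 for piericidin against oligomycin in control myoblasts, 1 and 2 for piericidin and oligomycin with LbNOX, 1 for piericidin with mitoLbNOX, 3 for the antimycin difference with mitoLbNOX and 0 for the oligomycin difference with LbNOX. In myotubes it was 0 for BAM15, 5% oxygen, oligomycin with BAM15 and added piericidin, and 1 for added 5% oxygen and for oligomycin against antimycin, and in day 1 cells it was 1 for oligomycin. When only the groups compared were fitted, it was 1 for piericidin with LbNOX, the oligomycin difference with LbNOX, 5% oxygen, added piericidin and oligomycin against antimycin, 0 for BAM15 and 2 for oligomycin with piericidin. With the plate-edge covariate it was 1 for piericidin with mitoLbNOX, 1 for antimycin in myotubes and 4 for added piericidin.

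With samples of 1 replicate number left out, the count ran from 2 to 3 for antimycin against piericidin, 3 to 6 for piericidin against oligomycin, 0 to 1 and 2 to 4 for piericidin and oligomycin with LbNOX, 0 to 1 for piericidin with mitoLbNOX, 1 to 4 for the antimycin difference with mitoLbNOX, and was 1 throughout for the oligomycin difference with LbNOX. In myotubes it ran from 0 to 1 for piericidin, 2 to 4 for oligomycin, 0 to 1 for BAM15, 5% oxygen, oligomycin with piericidin, oligomycin with BAM15 and added piericidin, 1 to 3 for added BAM15, 1 to 2 for added 5% oxygen, 2 to 4 for oligomycin against piericidin and 1 to 2 against antimycin. It ran from 1 to 3 for oligomycin in GFP myotubes, 3 to 4 in LbNOX myotubes, 0 to 2 in day 1 cells, 2 to 4 for myotubes against day 1 cells and 0 to 1 for chloramphenicol in control myoblasts.

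Replicate numbers paired the samples in 1 of 33 comparisons with 3 numbered pairs (every pair's correlation over 0.1), oligomycin against antimycin in untransduced myotubes, where the block gave 4 calls. In the rest of the 33 not every pair passed that limit. Samples of a number could lie in neighbouring wells, such as F06, G06 and H06 for number 1 of DMSO, piericidin and antimycin in untransduced myotubes. The number may thus also mark plate position. Outside oligomycin against antimycin, the replicate block gave 1 call for 5% oxygen in myotubes and 0 for chloramphenicol in control myoblasts. It stayed within 1.5 times the count without the block in all remaining comparisons. Groups of 2 or 3 samples limit what could be called.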
